A study of Homo sapiens with 23 samples.

Results

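The genes described here are 8 receptors that steer B cell migration, CXCR4, CXCR5, CCR6, CCR7, S1PR1, S1PR2, GPR183 and P2RY8, together with GNA13, which encodes a G protein alpha subunit that S1PR2 and P2RY8 signal through. They were taken by name as a set of 9 genes among the 58592 whose estimated counts were summed per gene, and 6 of the 9 were among the 17743 genes with enough counts to be tested. RNA was measured in 23 libraries of SUDHL5, an established human cell line of germinal centre type diffuse large B cell lymphoma. Cells received CDK-TCIP1 for 2 h at 10 nM (n = 2), at 30 nM (n = 4) or at 100 nM (n = 3), CDK-TCIP1 for 4 h at 30 nM (n = 3), the compounds Neg1 (BAK_04_054) and Neg2 (BAK_04_066) at 30 nM for 2 h and for 4 h (n = 2 each), or DMSO vehicle for 4 h (n = 3), where n counts libraries. All groups shared the same line and the same final DMSO share, 1 line stands for the disease throughout, and vehicle was harvested at 4 h alone, so that time and compound both change when 2 h libraries are set against vehicle. CDK-TCIP1 is a bivalent molecule that joins a ligand of the repressor BCL6 to a ligand of the transcriptional kinase CDK9. The labels give no structure for Neg1 or Neg2.

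In lymphoid follicles, CXCR5 draws B cells towards the chemokine CXCL13 and CXCR4 draws germinal centre B cells towards CXCL12 in the dark zone, both through inhibitory G proteins and Rac. S1PR2 and P2RY8 act the other way: bound by sphingosine-1-phosphate or by S-geranylgeranyl-L-glutathione, they signal through the product of GNA13 to the exchange factor encoded by ARHGEF1 and to RhoA, which holds the cells within the germinal centre. GNA13, P2RY8 and S1PR2 are recurrently mutated in lymphomas of germinal centre origin.

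Library totals ran from 17396484 to 26373153 estimated counts. The first 100 nM replicate and the first Neg2 2 h replicate held the fewest genes with a count (22965 and 22970, against 23107 to 24575 in the other libraries). Some of the results that rest on them are also given without them. All 6 B cell markers and all 7 germinal centre markers were present at 1 TPM or more in every group mean, among them MME at 41.4 to 83.1 TPM and BCL6 at 124 to 220 TPM over the libraries. After 4 h at 30 nM CDK-TCIP1, against DMSO, 2 of the 7 germinal centre markers were called higher and 5 lower, with a summed level of 488 to 492 TPM against 672 to 700 TPM. None of the 6 B cell markers was called higher and 3 were lower, and 2 of 5 plasma cell markers were lower, with JCHAIN present at 148 to 313 TPM and the defining PRDM1 at or under 0.565 TPM in every library. Of the 6 T and NK cell markers, whose summed level was 1.37 to 2.4 TPM with CDK-TCIP1 against 3.02 to 4.87 TPM in DMSO, CD2 was at 0 in every library while CD3E was at 0.82 to 2.66 TPM and CD3D reached 2.14 TPM, and neither of the 2 tested was called. The 5 myeloid markers summed to 1.3 to 1.43 TPM with CDK-TCIP1 against 0.932 to 2.15 TPM in DMSO, with CD14 at up to 1.15 TPM and FCGR3A at or under 0.027 TPM, and neither of the 2 tested was called. Of the 4 erythroid markers (summed level 1.12 to 3.57 TPM with CDK-TCIP1 against 0 to 1.43 TPM in DMSO) HBB was at 0 in every library and ALAS2 was called higher, at most 3.57 TPM. The 6 epithelial and fibroblast markers summed to 21.5 to 30.8 TPM with CDK-TCIP1 against 38.6 to 45.3 TPM in DMSO, nearly all of it from DCN (20.4 to 51.3 TPM over the libraries), which was called lower (log2 change -0.42, adjusted p = 0.000172, edgeR). The part of these markers in the results below was not tested. Separate cultures are not stated for the replicates, so each p-value reflects the spread of libraries, which may be technical, and in bulk RNA fewer cells of a type and less RNA per cell cannot be told apart.

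A promoter of each of the 2 receptors that fell together and those of 2 of the CXCR4 starts are shown for orientation. Each runs from 250 bases before to 50 after the start in RefSeq (GRCh38.p14), read on the minus strand. They lie at chr19:10231282-10231581 (S1PR2), chrX:1537136-1537435 (P2RY8), chr2:136118100-136118399 (the start next to that of transcript CXCR4-201) and chr2:136116186-136116485 (the internal start next to that of transcript CXCR4-202). Capitals mark CCACCC, the core that KLF factors bind, on either strand (GGGTGG on the other).
S1PR2: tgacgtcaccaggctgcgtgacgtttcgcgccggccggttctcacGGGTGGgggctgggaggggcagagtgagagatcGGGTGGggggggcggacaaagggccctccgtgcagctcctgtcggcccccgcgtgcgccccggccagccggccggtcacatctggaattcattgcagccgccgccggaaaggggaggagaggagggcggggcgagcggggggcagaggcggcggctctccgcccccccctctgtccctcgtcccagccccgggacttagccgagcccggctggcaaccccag
P2RY8: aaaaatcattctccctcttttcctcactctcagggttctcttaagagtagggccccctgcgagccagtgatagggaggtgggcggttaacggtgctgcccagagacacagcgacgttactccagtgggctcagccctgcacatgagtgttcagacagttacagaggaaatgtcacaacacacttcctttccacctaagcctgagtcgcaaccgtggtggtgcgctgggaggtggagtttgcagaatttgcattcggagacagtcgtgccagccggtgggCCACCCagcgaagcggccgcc
CXCR4-201: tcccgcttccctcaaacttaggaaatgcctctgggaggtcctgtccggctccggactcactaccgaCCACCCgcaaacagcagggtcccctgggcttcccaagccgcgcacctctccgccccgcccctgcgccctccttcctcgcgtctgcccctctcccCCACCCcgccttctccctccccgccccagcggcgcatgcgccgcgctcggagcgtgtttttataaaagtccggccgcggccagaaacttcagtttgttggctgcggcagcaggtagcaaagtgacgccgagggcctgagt
CXCR4-202: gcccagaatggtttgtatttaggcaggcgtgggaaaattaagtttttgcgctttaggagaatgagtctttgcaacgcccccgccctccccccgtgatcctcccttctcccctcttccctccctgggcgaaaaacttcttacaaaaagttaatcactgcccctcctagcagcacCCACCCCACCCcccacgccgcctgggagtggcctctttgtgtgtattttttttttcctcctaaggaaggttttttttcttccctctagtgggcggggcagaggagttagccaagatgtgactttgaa
The windows shown for S1PR2 and both CXCR4 starts held 2 such matches each and that shown for P2RY8 held 1. In the internal CXCR4 window the 2 matches overlap. Of the windows not shown, the other P2RY8 window (chrX:1494331-1494630), both GNA13 windows, that of GPR183 and 1 CCR6 window held none. The remaining CXCR4 window held 2, and the CXCR5, S1PR1 and remaining CCR6 windows held 1 each. At least 1 match stands in 34.3% of the 35116 promoter windows of this length. Neither TTCCTNGAA, a BCL6 motif found in 1.56% of those windows, nor GTAAACA, a forkhead motif found in 3.42%, stood in any of the 14 windows matched for 8 of the 9 genes, both strands searched. No window was matched for CCR7. The CXCR5 window (chr11:118893142-118893441) does not hold the start of transcript CXCR5-201 at 118883766, so the promoter of that transcript was not searched. The P2RY8 window shown does not hold the annotated start of transcript P2RY8-201 at 1537107 either. It lies before that start on the minus strand, so the bases at the start itself were not searched. These are matches of letters and say nothing of whether a factor was bound.

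Per length, CXCR4 had the highest mean level of the 9 genes in all 9 groups, and CCR6, CCR7, GPR183 and S1PR1 were the 4 lowest, with group means of at most 0.214 TPM. Over the 23 libraries CXCR4 ranged from 151 to 251 TPM with a median of 223 TPM. P2RY8 had a median of 103 TPM (43 to 155), GNA13 of 76 TPM (52.7 to 107), S1PR2 of 39.8 TPM (16.1 to 85.4) and CXCR5 of 3.55 TPM (2.12 to 6.84). In DMSO the order was CXCR4, P2RY8, GNA13, S1PR2 and CXCR5, and GNA13 (83.3 ± 5.88 TPM) and S1PR2 (79.9 ± 3.01 TPM, SD, n = 3) did not differ beyond their spread. After 30 nM CDK-TCIP1 for 4 h S1PR2 stood at 30.6 ± 1.32 TPM and GNA13 at 66.3 ± 1.53 TPM (n = 3), well apart. The median of CCR7 was 0.0954 TPM and that of S1PR1 0.0927 TPM, and CCR6 and GPR183 had a median of 0. TPM values divide by all transcripts of a library, so changes between groups below are given in CPM, counts scaled to library size with TMM factors, which centre the bulk of genes.

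**Figure D1:**
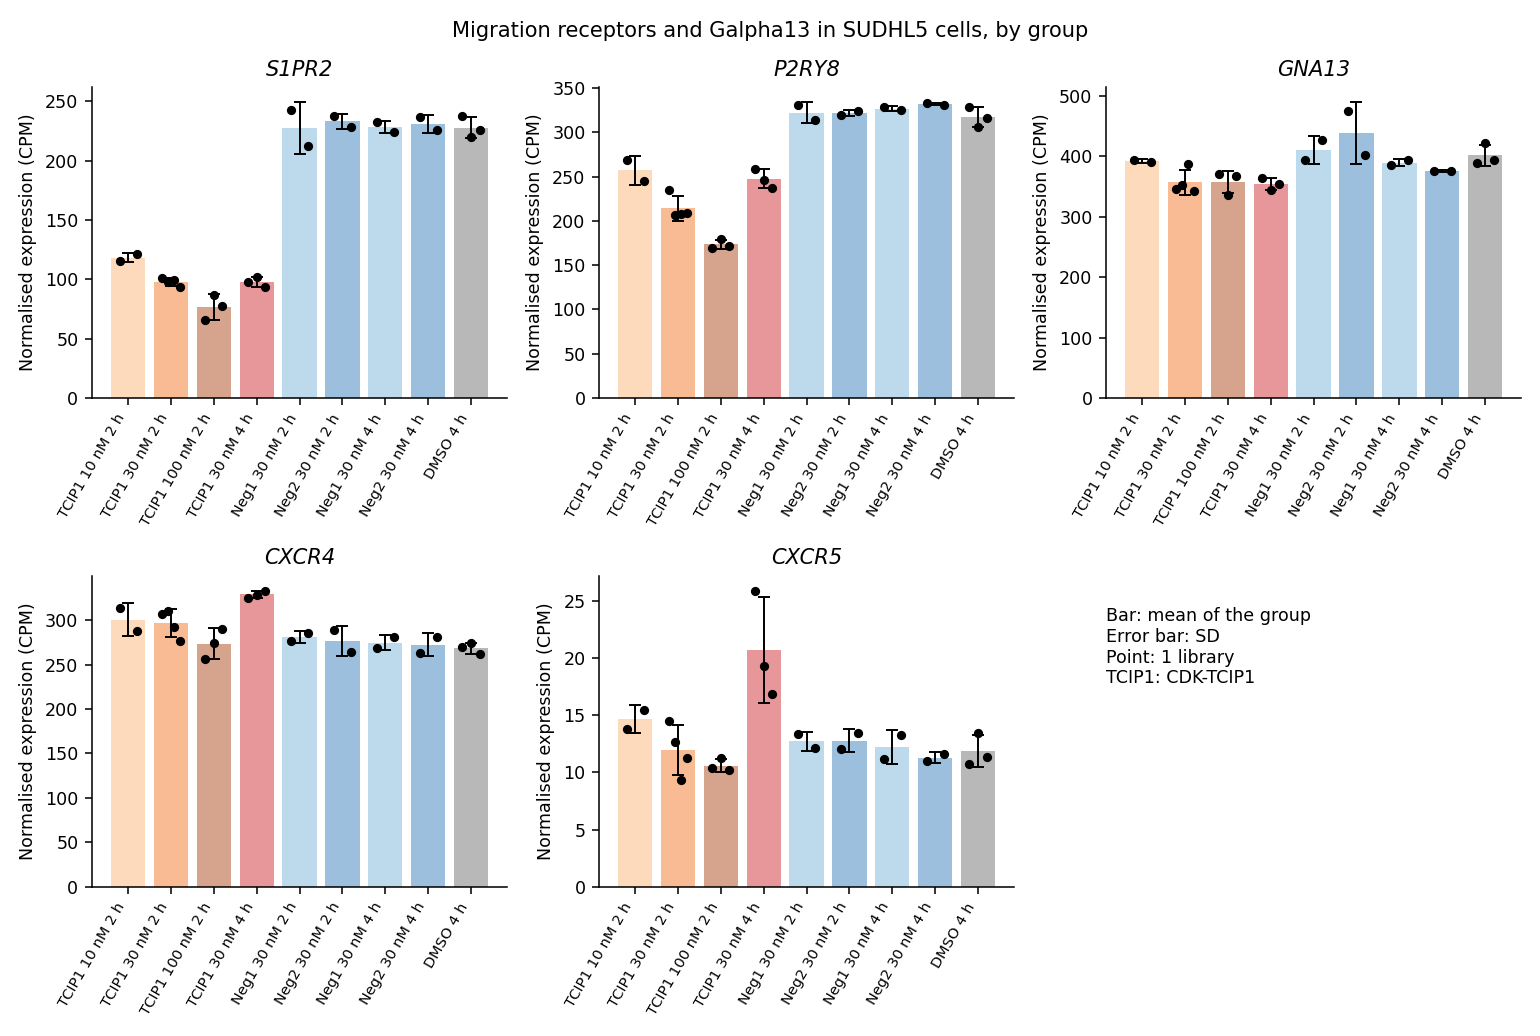
Normalised expression in CPM (vertical axes, from 0) of the 5 members above 1 CPM in each of the 9 groups (horizontal axes). Bars are group means, error bars the SD and points single libraries. All 12 CDK-TCIP1 libraries lie below the other 11 for S1PR2 and for P2RY8, and the 3 libraries at 30 nM for 4 h are the highest for CXCR4 and for CXCR5. The share of all genes that separate in these ways was not counted.

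The first comparison asks which members changed after 4 h at 30 nM, the time at which vehicle was harvested. S1PR2, the sphingosine-1-phosphate receptor that confines germinal centre B cells, fell the furthest, by a factor of 2.33. P2RY8 and GNA13, the second receptor of that route and its G protein, fell by less, and the chemokine receptors CXCR4 and CXCR5 rose. Of the 6 members tested, 3 passed the test as higher and 3 as lower by edgeR's quasi-likelihood test with Benjamini-Hochberg adjustment over all genes tested (adjusted p under 0.05), in a comparison in which 36.8% of all genes tested were called, 17.5% higher and 19.3% lower. The third gene called higher, CCR7, held 16 counts over the 3 treated libraries, against 1 over the 3 DMSO libraries. Its call was lost under several alternatives, which are given below.

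S1PR2 had 97.7, 102 and 93.8 CPM in the 3 libraries given 30 nM CDK-TCIP1 for 4 h, against 238, 220.2 and 226 CPM in the 3 DMSO libraries. Every treated library was below every DMSO library. The share of all genes whose libraries separated so was not counted, here or in the comparisons below. Small control groups also separated without a call. P2RY8 and GNA13 libraries did not overlap between Neg2 and DMSO at 4 h, or between Neg1 and Neg2 at 4 h. Those of S1PR2 overlapped in these comparisons. The log2 fold change was -1.22 ± 0.07 (SE, adjusted p = 9.08e-13, edgeR). At the same dose and time Neg1 gave 232 and 225 CPM and Neg2 236 and 226 CPM, and CDK-TCIP1 was lower than Neg1 by a log2 value of -1.22 ± 0.08 (adjusted p = 7.67e-12, edgeR) and than Neg2 by -1.24 ± 0.08 (adjusted p = 6.01e-12, edgeR). The S1PR2 gene (chr19:10221433-10231331, minus strand, in GENCODE 29 on GRCh38, as are all gene positions here) shares 83 exonic bases of its 3643 with DNMT1 on the same strand, and the log2 value of DNMT1 in this comparison was 0.00.

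P2RY8, which recognises S-geranylgeranyl-L-glutathione, had 259, 247 and 238 CPM after 30 nM CDK-TCIP1 for 4 h, against 329, 307 and 317 CPM in DMSO. The libraries did not overlap, and the fall was smaller than that of S1PR2, with a log2 change of -0.36 ± 0.05 (adjusted p = 6.72e-06, edgeR). Set against Neg1 it was -0.40 ± 0.06 and against Neg2 -0.42 ± 0.06 (adjusted p = 8.52e-06 and 3.84e-06, edgeR). With counts scaled for transcript length the value against DMSO was -0.54. P2RY8 lies in the region that the X and Y chromosomes share (chrX:1462572-1537107), and its 2 annotated copies, which held equal estimated counts in every library, were added.

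GNA13 (chr17:65010715-65056839, minus strand), which encodes the alpha subunit of G13, had 364, 344 and 354 CPM after 30 nM CDK-TCIP1 for 4 h, against 390, 422 and 395 CPM in DMSO. The groups did not overlap but the difference was small, with a log2 change of -0.18 ± 0.06 (adjusted p = 0.0159, edgeR). It did not pass without DMSO replicate 2 (-0.16, adjusted p = 0.0732, edgeR) or without treated replicate 2 (-0.16, adjusted p = 0.0686, edgeR). Against Neg1 the log2 value was -0.14 with a 95% interval of -0.273 to -0.003, and against Neg2 -0.09 with an interval of -0.22 to 0.05, and neither passed (adjusted p = 0.116 and 0.349, edgeR).

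CXCR4 (chr2:136114349-136118165, minus strand), the receptor for CXCL12, had 325, 329 and 333 CPM after 30 nM CDK-TCIP1 for 4 h, against 269, 274 and 262 CPM in DMSO. These 3 treated libraries were the highest of all 23. The log2 fold change was 0.29 ± 0.05 against DMSO (adjusted p = 0.000115, edgeR), 0.26 ± 0.06 against Neg1 and 0.27 ± 0.06 against Neg2 (adjusted p = 0.00176 and 0.00111, edgeR). Against Neg2 the call was lost without the first Neg2 4 h library (0.21, adjusted p = 0.0662, edgeR).

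CXCR5, the receptor for CXCL13, had 25.9, 19.4 and 16.9 CPM after 30 nM CDK-TCIP1 for 4 h, against 10.8, 13.4 and 11.3 CPM in DMSO. It was the largest rise among the members above 1 CPM, and the treated libraries spread more widely than the controls. The log2 fold change was 0.81 ± 0.15 against DMSO (adjusted p = 0.000102, edgeR), 0.76 ± 0.17 against Neg1 and 0.88 ± 0.17 against Neg2 (adjusted p = 0.0011 and 0.000236, edgeR). Of the 4431 exonic bases of CXCR5 (chr11:118883766-118897799, plus strand), 3925 are also exonic in BCL9L on the opposite strand, and the strand setting of library and counting is not given in the sources used here. BCL9L had a median of 126 counts a library and a log2 fold change of 0.01 in this comparison (adjusted p = 0.969, edgeR).

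Against the comparison compounds at 4 h, 4 of the 6 members tested were called against Neg1 and 4 against Neg2, in each case CXCR4 and CXCR5 as higher and S1PR2 and P2RY8 as lower. Against Neg1 31.1% of all genes tested were called, 14.2% higher and 16.9% lower, and against Neg2 31.1%, 14.4% higher and 16.8% lower. The 2 comparisons share the CDK-TCIP1 libraries.

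**Figure D2:**
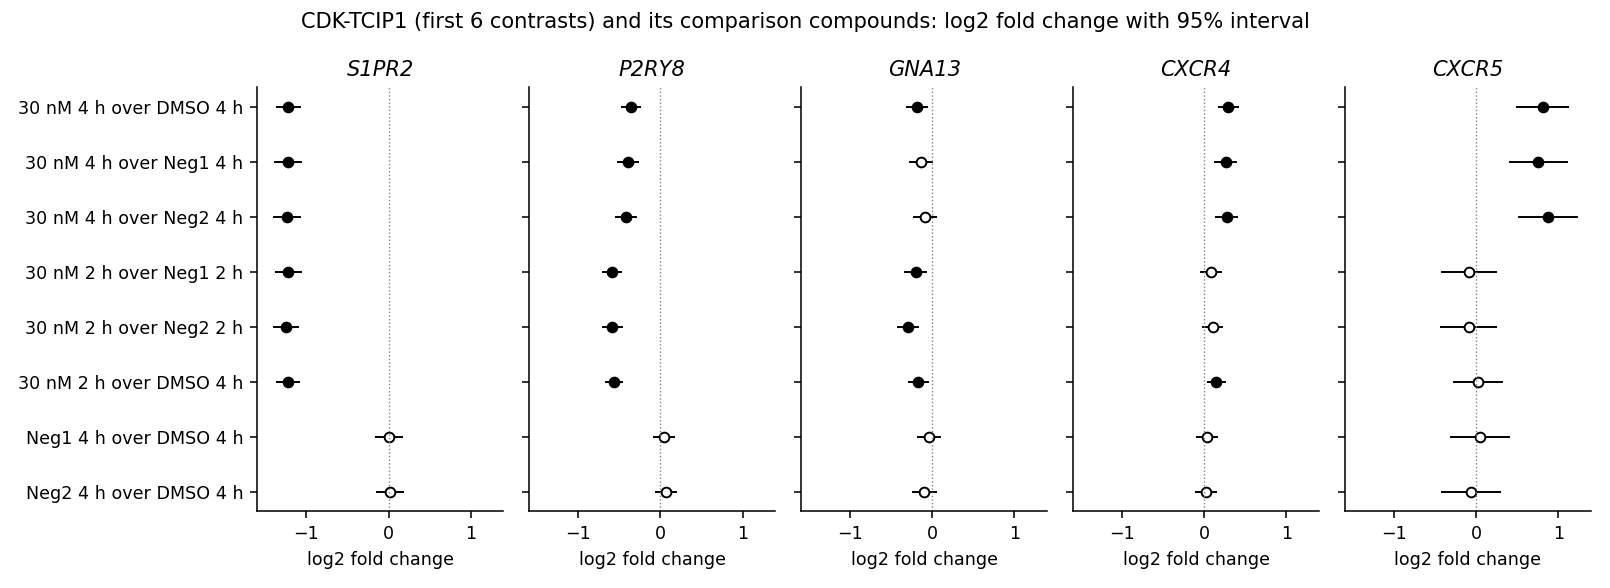
Log2 fold changes (horizontal axes) of the 5 members in 6 CDK-TCIP1 contrasts and in Neg1 and Neg2 against DMSO (rows). Points are edgeR estimates and lines 95% intervals, and filled points passed an adjusted p of 0.05. S1PR2 lies near -1.22 in all 6 CDK-TCIP1 contrasts and near 0 in both comparison compounds, while CXCR5 is away from 0 at 4 h only.

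The second comparison sets 30 nM CDK-TCIP1 against Neg1 and Neg2 at 2 h. The receptors and G protein of the confinement route were already lower at that time, and the chemokine receptors were not called. Against Neg1, 3 of 6 members were called, all lower, with 27.8% of all genes called, 13.6% higher and 14.2% lower. Against Neg2 3 of 6 were called, again S1PR2, P2RY8 and GNA13, with 30.5% of all genes called, 14.8% higher and 15.7% lower.

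S1PR2 had 101, 97.4, 99.1 and 93.4 CPM in the 4 CDK-TCIP1 libraries, against 243 and 212 CPM with Neg1 and 238 and 229 CPM with Neg2. Its log2 fold change was -1.22 ± 0.07 against Neg1 and -1.25 ± 0.07 against Neg2 (adjusted p = 3.64e-12 and 1.63e-12, edgeR). Without the first Neg2 library and the first 100 nM library, the value against Neg2 was -1.24. Every CDK-TCIP1 library was again below every library of the comparison compounds.

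P2RY8 had 235, 206, 207 and 209 CPM in the 4 CDK-TCIP1 libraries, against 331 and 314 CPM with Neg1 and 320 and 324 CPM with Neg2. The log2 fold change was -0.59 ± 0.06 against Neg1 and -0.59 ± 0.06 against Neg2 (adjusted p = 2.02e-08 and 1.78e-08, edgeR), and its groups did not overlap. GNA13 had 346, 352, 388 and 342 CPM with CDK-TCIP1, against 394 and 427 CPM with Neg1 and 475 and 402 CPM with Neg2, with log2 fold changes of -0.20 ± 0.06 and -0.30 ± 0.06 (adjusted p = 0.0162 and 0.000579, edgeR). The GNA13 calls each rested on 1 library: the call against Neg1 was lost without the second Neg1 library (-0.14, adjusted p = 0.27, edgeR), and that against Neg2 was lost without the first Neg2 library (-0.17, adjusted p = 0.0877, edgeR) and also when the first 100 nM library was left out with it (-0.18, adjusted p = 0.0658, edgeR).

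CXCR4 had 307, 310.4, 293 and 277 CPM after 2 h at 30 nM, against 276 and 286 CPM with Neg1 and 289 and 264 CPM with Neg2. The groups overlapped, and the log2 values of 0.08 (95% interval -0.04 to 0.20) and 0.10 (-0.02 to 0.22) did not pass. CXCR5 had 14.5, 12.7, 9.36 and 11.3 CPM after 2 h at 30 nM, against 13.3 and 12.1 CPM with Neg1 and 12.1 and 13.5 CPM with Neg2. Its log2 values of -0.09 in both comparisons had intervals of -0.42 to 0.25 and -0.42 to 0.24, which leave out a rise of the size seen at 4 h.

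The third comparison asks what differed between 2 h and 4 h at 30 nM. CXCR5 was the member that differed most. From the libraries of CDK-TCIP1 alone, 3 of 6 members were called, all higher at 4 h, with 21.9% of all genes called, 10.3% higher and 11.6% lower: CXCR5 by a log2 value of 0.79 ± 0.14, P2RY8 by 0.21 ± 0.05 and CXCR4 by 0.15 ± 0.05 (adjusted p = 0.000134, 0.00303 and 0.0357, edgeR). S1PR2 had a log2 value of 0.00 with an interval of -0.14 to 0.14, and GNA13 of -0.01 with an interval of -0.12 to 0.10. The CXCR4 call was lost in 5 of the 7 fits that left out 1 library, with the lowest value of 0.12 without the fourth 2 h library (adjusted p = 0.132, edgeR).

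The same question was tested as an interaction, the effect of CDK-TCIP1 over the mean of Neg1 and Neg2 at 4 h minus that at 2 h. Of the 6 members tested, 1 was called, CXCR5, with a difference of 0.91 ± 0.19 on the log2 scale (95% interval 0.51 to 1.30, adjusted p = 0.00245, edgeR), in a test that called 12.0% of all genes, 5.61% higher and 6.37% lower. It was called in each of the 15 fits that left out 1 library, from 0.71 to 1.03. The difference of P2RY8 was 0.18 (0.04 to 0.32) and that of CXCR4 0.18 (0.03 to 0.32), and neither passed (adjusted p = 0.092 and 0.101, edgeR). P2RY8 passed without the first 2 h CDK-TCIP1 library (0.22, adjusted p = 0.02, edgeR), the highest of its group, and both passed with DESeq2 (adjusted p = 0.044 for P2RY8 and 0.0478 for CXCR4). BCL9L, the gene that shares most exonic bases with CXCR5, had a log2 fold change of -0.89 at 2 h (adjusted p = 0.000254, edgeR) and 0.01 at 4 h against the shared DMSO libraries, and the part of reads from that strand in the CXCR5 result was not tested.

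**Figure D3:**
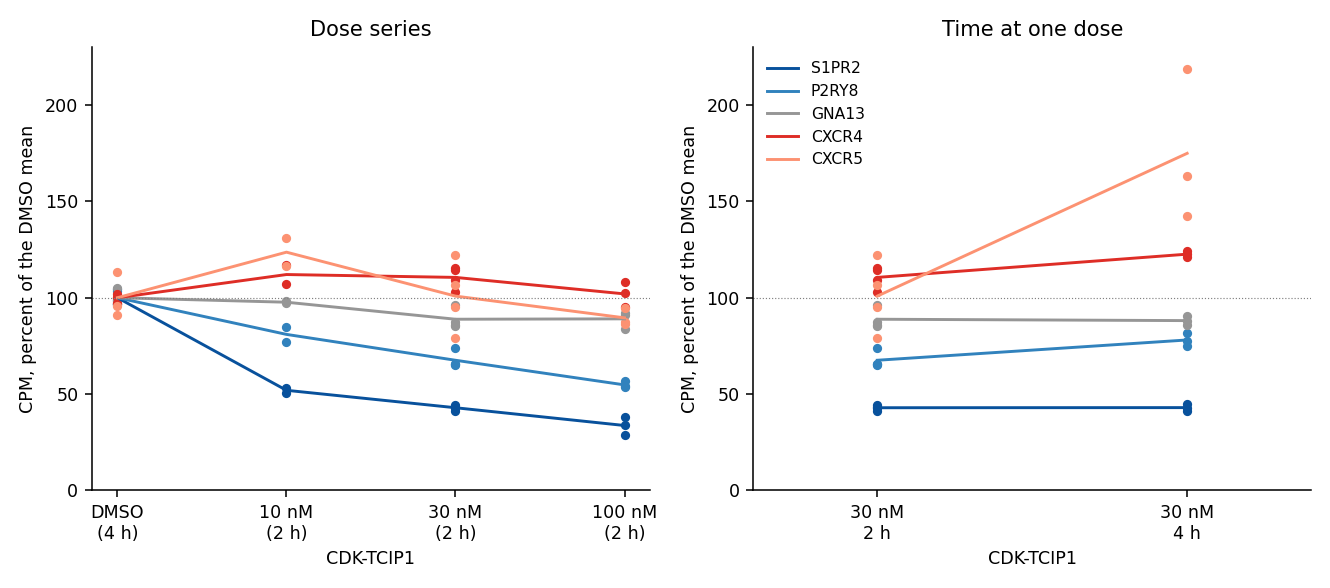
CPM as a percentage of the DMSO mean (vertical axes) across the dose series at 2 h, with DMSO at 4 h at the low end (left), and at 30 nM for 2 h and 4 h (right). Lines join group means and points are libraries. S1PR2 and P2RY8 step down with each dose at 2 h, and CXCR5 is the line that climbs most between 2 h and 4 h.

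The dose series at 2 h was read against DMSO at 4 h, which all 3 doses share. S1PR2 and P2RY8 were lower at each dose and lower still at the next. At 10 nM, 2 of 6 members were called, both lower, with 13.1% of all genes called, 5.93% higher and 7.12% lower. At 30 nM it was 5 of 6, 2 higher and 3 lower, with 34.3% of all genes called, 16.7% higher and 17.6% lower. The 2 called higher were CXCR4 and CCR7, the latter on 23 counts over 4 libraries. At 100 nM it was 3 of 6, all lower, with 42.6% of all genes called, 20.6% higher and 22.0% lower.

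S1PR2 averaged 228 ± 8.99 CPM in DMSO (SD, n = 3), 118 ± 3.93 CPM at 10 nM (n = 2), 97.7 ± 3.2 CPM at 30 nM (n = 4) and 76.7 ± 10.6 CPM at 100 nM (n = 3). The 10 nM libraries had 116 and 121 CPM and the 100 nM libraries 65.8, 87 and 77.3 CPM, and no 2 neighbouring doses overlapped. The log2 fold changes against DMSO were -0.95 ± 0.08, -1.22 ± 0.06 and -1.57 ± 0.07 (adjusted p = 7.15e-09, 3.14e-13 and 1.16e-14, edgeR).

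P2RY8 averaged 317 ± 11.3 CPM in DMSO (SD, n = 3), 257 ± 16.7 CPM at 10 nM (n = 2), 214 ± 14 CPM at 30 nM (n = 4) and 174 ± 5.12 CPM at 100 nM (n = 3). The 10 nM libraries had 269 and 245 CPM and the 100 nM libraries 170, 180 and 172 CPM. The log2 fold changes against DMSO were -0.30 ± 0.06, -0.57 ± 0.05 and -0.87 ± 0.05 (adjusted p = 0.00101, 2.83e-09 and 3.45e-12, edgeR). Without the first 100 nM and the first Neg2 2 h library the changes at 100 nM were -1.50 for S1PR2 and -0.88 for P2RY8.

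The steps between doses were tested at one time. Between 30 and 10 nM 2 members were called, both lower, where 2.62% of all genes were called, 0.800% higher and 1.82% lower: S1PR2 by -0.28 ± 0.07 and P2RY8 by -0.26 ± 0.06 on the log2 scale (adjusted p = 0.0432 and 0.0114, edgeR). The S1PR2 step was not called in any of the 6 fits that left out 1 library of either dose, with values of -0.33 to -0.24 (adjusted p from 0.0583 to 0.371, edgeR), and the P2RY8 step was lost without the first 10 nM library (-0.21, adjusted p = 0.215, edgeR). Between 100 and 30 nM the same 2 members were called, where 12.9% of all genes were, 4.44% higher and 8.45% lower: S1PR2 by -0.35 ± 0.07 and P2RY8 by -0.30 ± 0.05 (adjusted p = 0.00112 and 0.000281, edgeR). Without the first 100 nM and the first Neg2 2 h library these were -0.26 and -0.30 (adjusted p = 0.0129 and 0.00189, edgeR). The 2 steps share the 30 nM libraries.

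GNA13 averaged 402 CPM in DMSO, 393 ± 3.27 CPM at 10 nM, 357 ± 20.9 CPM at 30 nM and 358 ± 18.7 CPM at 100 nM. The change at 10 nM was not called (-0.03, 95% interval -0.17 to 0.10), and those at 30 and 100 nM were, at -0.17 ± 0.06 and -0.17 ± 0.06 (adjusted p = 0.0168 and 0.0232, edgeR). Both were lost without DMSO replicate 2 (adjusted p = 0.0889 and 0.0849, edgeR). That at 30 nM was also lost without the fourth 30 nM library (-0.15, adjusted p = 0.0548, edgeR), and that at 100 nM without the second 100 nM library (-0.12, adjusted p = 0.133, edgeR).

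CXCR4 averaged 268 ± 6.34 CPM in DMSO, 301 ± 18.4 CPM at 10 nM, 297 ± 15.4 CPM at 30 nM and 274 ± 17.3 CPM at 100 nM. Only the value at 30 nM passed (0.15 ± 0.05, adjusted p = 0.0296, edgeR), and it was lost in 5 of the 7 fits that left out 1 library (adjusted p from 0.0673 to 0.17, edgeR). On the TPM scale CXCR4 stood lower at 100 nM, at 176 ± 23.7 TPM against 227 ± 9.49 TPM in DMSO (n = 3 each). The TMM scaling does not show this difference (log2 fold change 0.03, interval -0.09 to 0.14). In TPM at 100 nM GNA13 was also lower, at 55.8 ± 4.92 against 83.3 ± 5.88 TPM in DMSO. CXCR5 was at 2.35 ± 0.204 against 3.49 ± 0.457 TPM, and S1PR2 and P2RY8 were lower in TPM as in CPM. CXCR5 averaged 11.8 ± 1.4 CPM in DMSO, 14.6 ± 1.22 CPM at 10 nM, 11.9 ± 2.17 CPM at 30 nM and 10.6 ± 0.555 CPM at 100 nM, and no dose passed at 2 h.

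Neg1 and Neg2 were compared with DMSO at 4 h and with each other at 2 h and at 4 h, 4 comparisons in all. No member was called in any of them, and edgeR called 0% of all genes, that is 0 of 17743. At an unadjusted p under 0.05 there were 770 genes for Neg1 against DMSO, 1063 for Neg2 against DMSO, 1126 for Neg1 against Neg2 at 2 h and 464 at 4 h, and DESeq2 called 1, 4, 1 and 1. Without the second Neg2 2 h library edgeR called 83 genes between Neg1 and Neg2 at 2 h, 78 higher and 5 lower, and with the compared groups alone it called 42 for Neg2 against DMSO, 25 higher and 17 lower, with no member among them. The intervals set how much the 2 compounds could still differ. For S1PR2 the difference of Neg1 minus Neg2 was -0.03 on the log2 scale at 2 h (95% interval -0.21 to 0.14) and -0.02 at 4 h (-0.19 to 0.15). For P2RY8 it was 0.00 (-0.13 to 0.14) and -0.02 (-0.15 to 0.11), for CXCR4 0.02 (-0.12 to 0.16) and 0.01 (-0.13 to 0.15), and for GNA13 -0.10 (-0.24 to 0.05) and 0.05 (-0.10 to 0.20). CXCR5, the least abundant of the 5, had the widest intervals, -0.39 to 0.37 at 2 h and -0.27 to 0.51 at 4 h. Neg1 and Neg2 differed from DMSO in S1PR2 by 0.00 (-0.15 to 0.16) and 0.02 (-0.14 to 0.18).

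CCR7 (chr17:40553769-40565472), which draws B cells to the T zone ligands CCL19 and CCL21, stood near the limit of detection in every group. The 3 libraries at 30 nM for 4 h held 16 counts in all, 3 to 8 a library, against 1 count in all 3 DMSO libraries, a ratio of CPM of 16.2 with an exact 95% interval of 2.52 to 679 that covers counting error only. The test called it higher (adjusted p = 0.037, edgeR), and at 2 h with 23 counts over 4 libraries (adjusted p = 0.0228, edgeR). Neg1 at 4 h held 12 counts in 2 libraries, a ratio to DMSO of 21.3 (3.15 to 910), and the difference of CDK-TCIP1 from Neg1 at 4 h did not pass (log2 value -0.41, interval -2.61 to 1.79). CCR7 passed the filter on low counts in 1 of the 6 fits that left out a library at 4 h, and in 3 of 7 at 2 h. In the fit without the third DMSO library both calls were lost (adjusted p = 0.109 at 4 h and 0.0807 at 2 h, edgeR). The 4 h call was also lost with no filter (adjusted p = 0.0677, edgeR), with counts scaled by transcript length (adjusted p = 0.0654, edgeR), with a replicate block (adjusted p = 0.0546, edgeR) and without the first 100 nM and first Neg2 2 h libraries (adjusted p = 0.0552, edgeR), and DESeq2 kept it (adjusted p = 0.0332). A floor of 3 counts corresponds to 0.119 to 0.185 CPM in these libraries.

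CCR6, GPR183 and S1PR1 were removed by the filter on low counts. CCR6, the receptor for CCL20, had 0 counts in 19 of 23 libraries and at most 5 in any. GPR183, which follows oxysterols to the follicle edge, had 0 counts in 16 libraries and at most 9. S1PR1, which draws lymphocytes out of lymphoid tissue along sphingosine-1-phosphate, had 0 counts in 5 libraries and at most 7, with 15 counts over the 3 libraries at 30 nM for 4 h (0.231 CPM, exact Poisson interval 0.129 to 0.381) and 7 over the 3 DMSO libraries (0.106 CPM, 0.0428 to 0.219). The intervals overlap, and no difference was detectable at this depth. Of the sphingosine-1-phosphate receptors among the members, S1PR2 thus held almost all counts, 75772 over the 23 libraries against 65 for S1PR1.

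For CXCR4, CXCR5, S1PR2, P2RY8 and GNA13, transcripts with at least 10% of the summed TPM of their gene in any group mean were described. Those of CCR6, CCR7, GPR183 and S1PR1, whose shares rest on few counts, were not. S1PR2-202 and CXCR5-201 held 100% of the estimated counts of their genes. P2RY8-201 held 97.8 to 99.2% of the P2RY8 counts, and P2RY8-202, annotated at 407 bases, held the rest, although its short length gives it 19.3 to 39.7% of the TPM. GNA13-201 held 96.9 to 99.7% of the GNA13 counts. The shorter GNA13-202 held 0.595 to 2.37% of the counts and 2.85 to 10.6% of the TPM with CDK-TCIP1, against 0.329 to 3.07% and 1.58 to 13.4% in the other libraries, which overlap. CXCR4-201 held 88.2 to 94.9% of the CXCR4 counts in the 12 CDK-TCIP1 libraries, against 85.7 to 89.2% in the other 11.

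The share of CXCR4-202 was looked at after its values had been seen, since it falls under that limit. This transcript starts at position 136116243 of chromosome 2, inside the gene, while CXCR4-201 starts at 136118165. It held 2.71 to 4.67% of the CXCR4 counts in the 12 CDK-TCIP1 libraries (median 3.42%), against 5.05 to 8.61% in the 11 libraries of Neg1, Neg2 and DMSO (median 6.92%). Every CDK-TCIP1 library, at each dose and time, was below every other library. Of 16202 transcripts with a mean of at least 100 estimated counts in genes with more than 1 transcript, 3.67% had shares that did not overlap between these libraries, with 1.64% of the 16202 lower throughout with CDK-TCIP1 and 2.03% higher. The third transcript, CXCR4-203, held 2.38 to 8.92% with CDK-TCIP1 and 4.34 to 8.96% otherwise, which overlap. Estimated counts of transcripts that share most of their sequence are less certain than gene totals, and no test was made of this share.

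**Figure D4:**
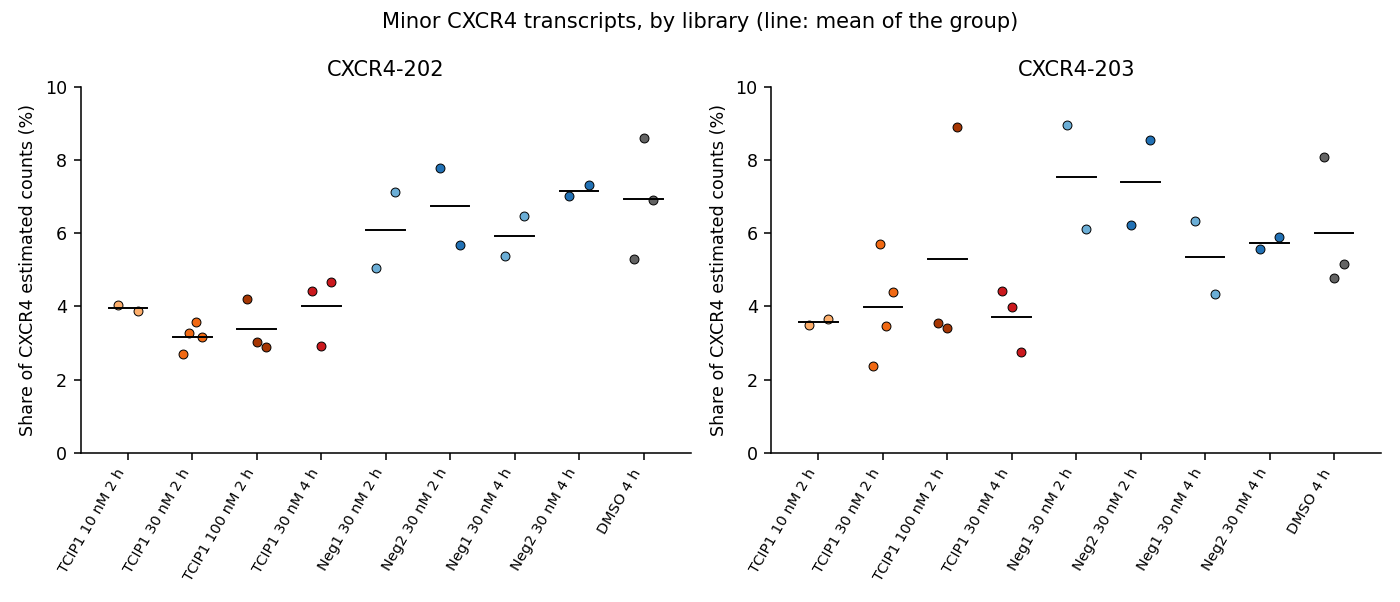
Share of the CXCR4 estimated counts in percent (vertical axes) of transcripts CXCR4-202 (left) and CXCR4-203 (right) in each library of the 9 groups (horizontal axes), with lines at group means. The CXCR4-202 points of all CDK-TCIP1 groups lie between 2.71 and 4.67%, under all other points, whereas those of CXCR4-203 overlap.

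Genes with the most similar pattern were found by the Pearson correlation of log2 CPM over the 9 group means among 9487 protein-coding genes, as a description over points that share libraries and controls. For S1PR2 these were SGK1 (r = 0.999), LYL1 (0.997) and TSPAN14 (0.996), with log2 fold changes of -2.03, -1.13 and -0.52 at 30 nM for 4 h against DMSO. For P2RY8 they were SUV39H2 (0.998), IL10RA (0.997) and KCTD7 (0.997), with -0.24, -0.62 and -0.49. CXCR4 was closest to UHRF2 (0.986), ZNF431 (0.983) and SLC30A4 (0.98), and CXCR5 to POLH (0.955), YTHDF2 (0.955) and OSER1 (0.954). GNA13 was closest to KLF10 (0.977), GASK1B (0.963) and ZNF567 (0.951). Among the members themselves, S1PR2 and P2RY8 had r = 0.96 and CXCR4 and CXCR5 r = 0.89, while S1PR2 and CXCR4 had r = -0.57.

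The genes around the receptors moved in both directions. At 30 nM for 4 h against DMSO, 13 of 20 listed ligand genes and enzymes were tested, of which 3 rose and 3 fell, with a median log2 fold change of 0.04 beside 0.034 over all genes tested. The enzymes that turn over sphingosine-1-phosphate, the S1PR2 ligand, were among both. SGPP1, a phosphatase that removes its phosphate, rose to 433 ± 18.4 CPM, against 276 ± 13.6 CPM in DMSO (log2 0.65 ± 0.05, adjusted p = 1.43e-10, edgeR). SGPL1, the lyase that degrades it, fell to 24.7 ± 2.76 CPM, against 46.1 ± 1.88 CPM (-0.90 ± 0.08, adjusted p = 7.18e-10, edgeR), and SPHK2, a kinase that makes it, to 17 ± 2.14 CPM, against 24.4 ± 0.633 CPM (-0.52 ± 0.11, adjusted p = 0.00043, edgeR; SD, n = 3 each). SPNS2, its exporter, rose by 0.99, HSD3B7 of oxysterol metabolism by 0.81, and SPHK1, at about 1 CPM or less, fell by 1.26 on the log2 scale.

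Of 18 tested receptors, selectins and integrins other than the members, 3 rose and 3 fell (median -0.25). CD69, which binds S1PR1 and takes it off the surface, rose to 49.4 ± 4.53 CPM, against 27.7 ± 1.08 CPM in DMSO (SD, n = 3 each), and P2RY10, a lysophosphatidylserine receptor, to 66.7 ± 3.08 CPM, against 39.5 ± 1.15 CPM. ITGB1, the integrin beta 1 chain, rose by 0.27. ITGAL, the alpha chain of LFA-1, fell to 28 ± 2.21 CPM, against 63.5 ± 6.52 CPM (-1.18 ± 0.09, adjusted p = 7.09e-11, edgeR), and the cannabinoid receptor CNR2 and the lysophosphatidic acid receptor LPAR5 fell by 0.72 and 0.37 on the log2 scale.

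Of 13 other G protein subunits tested, none rose and 4 fell (median 0.05), led by GNA11 (-0.75), GNAI3 (-0.39) and GNA12 (-0.34), the last of which belongs to the same family as GNA13. Of 17 genes between the product of GNA13 and the actin cytoskeleton, 5 rose and 5 fell (median -0.05). ARHGEF1, the exchange factor activated by G13, rose to 143 ± 2.22 CPM, against 119 ± 4.65 CPM in DMSO (0.27 ± 0.06, adjusted p = 0.00161, edgeR), and the myosin light chains MYL12A and MYL12B rose by 0.34 and 0.25. ARHGEF11, a second exchange factor for RhoA, fell by 1.24, the RhoA-dependent kinase ROCK2 by 0.92 and the formin DIAPH1 by 0.89 on the log2 scale, DIAPH1 to 260 ± 8.03 CPM, against 483 ± 22.6 CPM (n = 3 each).

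Of 24 genes of the Rac, Rap and PI3K route tested, 6 rose, among them RAC2 (0.43), RASSF5 (0.37) and ARPC2 (0.24), and 6 fell, among them WIPF1 (-0.60), DOCK11 (-0.56) and VAV1 (-0.28), with a median of 0.03. Of 16 regulators and kinases of G protein coupled receptors, 1 rose and 5 fell (median -0.13). GRK2, a kinase that desensitises such receptors, rose to 316 ± 16.7 CPM, against 223 ± 9.38 CPM in DMSO, and RGS1 and RGS13, which dampen G protein signals in B cells, fell by 0.84 and 0.55 on the log2 scale, as did the kinase GRK6 by 0.55.

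Of 23 tested factors described as controlling the receptors, 3 rose and 8 fell (median -0.10). FOXO3 (0.57), HIF1A (0.20) and IRF8 (0.16) rose. The B cell coactivator POU2AF1 fell to 287 ± 19.1 CPM, against 485 ± 47.4 CPM in DMSO (-0.75 ± 0.07, adjusted p = 5.8e-09, edgeR), and POU2F1 and PAX5 fell by 0.54 and 0.46. These counts, 21 higher and 34 lower of 124 listed genes tested, stand beside 17.5% higher and 19.3% lower among all genes. Some of these genes were not called at 2 h against Neg1 or Neg2: VAV1 had 0.03 and 0.00, DOCK11 -0.04 and -0.11, PAX5 0.12 and 0.13 and ARHGEF11 -0.29 and -0.12 on the log2 scale, while SGPP1, SPHK2, CD69, ARHGEF1, GRK2 and RGS1 were called in the same direction at both times and against both compounds.

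**Figure D5:**
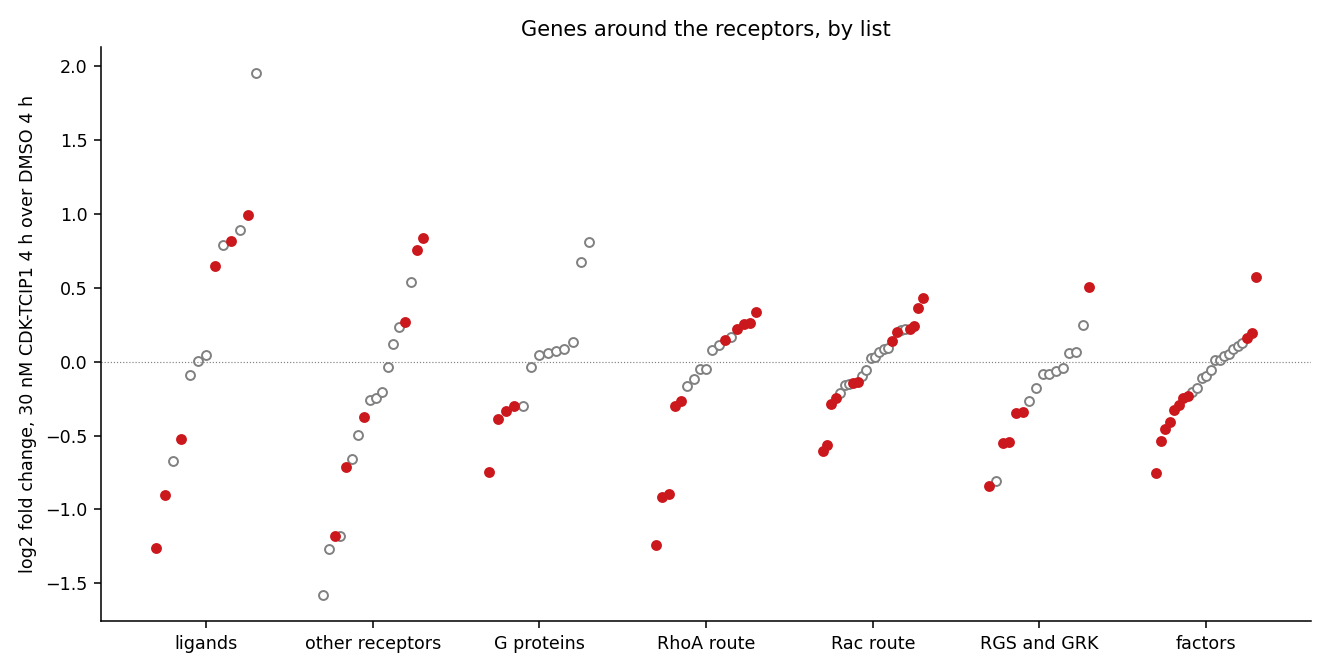
Log2 fold change at 30 nM CDK-TCIP1 for 4 h over DMSO for 4 h (vertical axis) of every tested gene of the 7 lists (horizontal axis), ordered by value within each list. Filled points passed an adjusted p of 0.05 in edgeR, open points did not. Every list but that of the G protein subunits holds called genes on both sides of 0.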

How the data were processed

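The deposited tables hold estimated counts and TPM for 227912 transcripts in each of 23 libraries. Per the labels' protocols, RNA was extracted with column DNase treatment, enriched for poly(A) and sequenced paired-end. The tools named, per the submitters' processing notes, are kallisto, cutadapt, FastQC and DESeq2. No source used here gives their versions, the strand of the library or the transcripts they counted. The authors' TPM values are scaled per length and to 1 fixed total in each library, so a level in TPM depends on all other transcripts.

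Estimated counts were summed per gene through GENCODE 29 (GRCh38), which matched 205964 transcripts and left 1.16 to 1.28% of the counts unmatched, and were rounded. Genes were kept by edgeR's filterByExpr, and edgeR 4.0.16 (R 4.3.3) fitted its quasi-likelihood model with TMM scaling to all 23 libraries with 1 coefficient per group. A gene was called at a Benjamini-Hochberg adjusted p under 0.05 over 17743 genes. The procedure was tested on simulated data. Alternatives were DESeq2 1.42.0, its size factors, no filter, counts scaled by transcript length, a replicate block, the compared groups alone, and leaving out libraries. Intervals for sums of low counts cover counting error only.

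The named genes were the 9 members, the 3 largest called rises and falls of each list at 30 nM for 4 h against DMSO, the 3 genes most like each member, and transcripts with at least 10% of a member's TPM. The members and lists were chosen with earlier results of these data known. Promoter windows are RefSeq's on GRCh38.p14.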

Additional observations from a re-analysis of the deposited data

Results flagged for a closer look

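P2RY8 in the 30 nM 2 h group had 1 library apart from the other 3, replicate 1 at 235 CPM against 206 to 209 CPM. The same library stood apart for CCR6, at 0.159 CPM with the others at 0, and for GPR183, at 0.357 CPM, which are 4 and 9 counts. Only that group has the 4 libraries this comparison needs, and all 9 genes were looked at in it. For normally distributed values about 1 group in 20 would stand out so by chance. That rate does not hold for CCR6 and GPR183, whose counts are near 0, since a gene counted in 1 library alone always stands apart. The P2RY8 change at 30 nM for 2 h against DMSO was -0.61 without that library and -0.57 with it on the log2 scale.

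The effect of CDK-TCIP1 on CXCR5 differed between times. The effect over the mean of Neg1 and Neg2 was higher by 0.907 on the log2 scale at 4 h than at 2 h (adjusted p = 0.00245, edgeR). Of the 4431 exonic bases of CXCR5, 3925 are also exonic in BCL9L on the opposite strand. BCL9L had log2 fold changes of -0.89 at 2 h and 0.01 at 4 h against DMSO. The part of reads from that strand in this result was not tested.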

How the results depend on the processing

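No member value past the threshold changed sign under any alternative. Of 1201 member values recomputed, 1057 kept their direction and their side of the threshold, 44 lost a call, 8 gained one, and 92 changed sign while under the threshold both times. For 30 nM CDK-TCIP1 at 2 h against DMSO, where 5 members were called, the replicate block left 3, and leaving out 1 library left 2 to 5. For 30 against 10 nM, with 2 called, counts scaled by transcript length left 0, the block 1, and leaving out 1 library 0 to 1. For 4 h against 2 h of CDK-TCIP1, with 3 called, scaled counts left 1, and leaving out 1 library 2 to 3. For the difference over time, with 1 called, DESeq2 called 3, and leaving out 1 library 1 to 2. Leaving out 1 library gave 4 to 5 for 30 nM at 4 h against DMSO, 4 to 4 against Neg1 and 3 to 4 against Neg2, 2 to 3 for 30 nM at 2 h against Neg1 and against Neg2, 2 to 2 for 10 nM and 2 to 3 for 100 nM against DMSO, 2 to 3 for 100 against 30 nM, and 0 for the comparisons of Neg1 and Neg2. CCR7 fell under the filter on low counts in some of these fits, 5 of the 6 for 30 nM at 4 h against DMSO, and is then not among the members called. The cause was not tested.

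Over all genes, 30 against 10 nM gave 465 calls, against 807 with DESeq2, 786 with no filter, 90 with scaled counts, 775 without the first 100 nM and first Neg2 2 h libraries and 52 to 431 with 1 library left out. For 100 against 30 nM, 2287 calls became 844 with scaled counts, 1205 with the compared groups alone, 902 without those 2 libraries and 839 to 2823 with 1 left out. For 10 nM against DMSO, 2317 became 992 with scaled counts and 971 to 1857 with 1 left out. With scaled counts, 3888 calls for 4 h against 2 h became 1902, 2126 for the difference over time 618, 5512 and 5525 for 30 nM at 4 h against Neg1 and Neg2 3441 and 3423, and 4933 and 5414 at 2 h 2906 and 3410. Leaving out 1 library gave at least 3555 for the 4 h comparison with Neg1, and 3012 and 3250 at 2 h with Neg1 and Neg2. With no filter, edgeR called 74 and 119 genes for Neg1 and Neg2 against DMSO, and 143 and 47 between them at 2 h and 4 h. With the compared groups alone it called 1 and 42 against DMSO, and 0 and 3 between them, and leaving out 1 library gave 0 to 2, 0, 0 to 83 and 0 to 1.

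Replicate numbers showed no sign of pairing the libraries. Over 78 pairs with the same number the median correlation of deviations was -0.00234 (-0.0444 to 0.0443). Over 155 pairs with different numbers it was 0.00072 (-0.0586 to 0.0586). In groups of 2 libraries the deviations from the group mean are equal and opposite. The pairs with different numbers are therefore not an independent reference for those with the same number. The correlation was taken over all genes tested, those with few counts included, so it does not settle whether libraries shared a culture or day. With the block, GNA13 at 30 nM for 2 h against DMSO was -0.15 (adjusted p = 0.0522, edgeR), the S1PR2 step between 30 and 10 nM -0.25 (adjusted p = 0.127, edgeR), and CXCR4 at 4 h against 2 h 0.12 (adjusted p = 0.137, edgeR). The CCR7 calls at 30 nM against DMSO were lost as well (adjusted p = 0.0546 at 4 h and 0.0798 at 2 h, edgeR), and the block changed no other call of a member. Depth limits CCR6, GPR183, S1PR1 and CCR7, whose libraries mostly hold fewer counts than the floor of 3 or little more.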
